A study of Homo sapiens with 9 samples.

Results

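The K562 human leukemia cell line was compared between 1 expression array of cells given 100 nM decitabine (DAC) and 2 arrays of untreated cells, which are 3 of the 9 arrays of the series. The members were chosen by the array titles alone and not by their values. DAC was given in 3 pulses of 24 h, and cells were harvested 144 h after the first. The other K562 arrays were 1 with 25 µM hemin, 1 with 50 µM hemin and 1 with 5 nM PMA for 48 h, and another human myeloid leukemia line, HEL, had 1 array each without treatment, with DAC at 20 nM and with PMA at 5 nM. The protocol shared by the samples names DAC at 50 and 100 nM and hemin at 50 µM alone, so each dose was taken from the array's title. No vehicle control is labelled, and the labels do not say whether the untreated arrays came from separate cultures. They give no harvest time for the untreated arrays, so it is not known whether time in culture was matched to the DAC array.

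Decitabine is a deoxycytidine analogue that is phosphorylated in the cell, built into DNA during replication and traps DNA methyltransferases there, so that methylation is lost as cells divide. It is used in myeloid neoplasms, and methylated promoters of germline, imprinted and tissue-restricted genes are known to become active under it. K562 cells carry BCR-ABL1 and already express embryonic and fetal globin genes, and several inducers move them further along the erythroid path.

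Values are the deposited log2 values of probe sets, in which a difference of 1 is a 2-fold difference. A gene is represented by its brightest probe set, and 9890 genes reached a log2 value of 5 in at least 1 of the 6 K562 arrays. The erythroid markers of K562 were at 5 or more in all 3 arrays: the embryonic globin HBZ was at 14.71 and 12.05 in untreated 1 and 2 and 16.27 with DAC, and GATA1, the master erythroid factor, was at 10.42, 9.72 and 10.59. Of 5 megakaryocyte markers, ITGB3, GP1BA, GP9 and PF4 were under 5 in all 3 arrays, while ITGA2B was at 7.29 and 7.86 untreated and 5.80 with DAC. Of the monocyte and granulocyte markers, LYZ was at 7.19 and 8.64 untreated and 6.34 with DAC, and ITGAM at 3.36, 7.27 and 2.45. CD3D, a T cell receptor chain, was at 10.42 and 11.01 untreated and 8.51 with DAC.

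The untreated arrays stood apart from each other. They differed by over 1.5-fold in 2417 genes (24.4%). Over the 27306 probe sets the DAC array correlated at 0.976 with untreated 1 and at 0.956 with untreated 2, against 0.982 between the untreated arrays. Across genes the DAC difference and the difference of untreated 1 over untreated 2 correlated at 0.456, a description over genes that share these arrays. Among the genes higher with DAC by the rule below, 1044 of 1442 were also higher in untreated 1 than in untreated 2, and among those lower, 1332 of 1709 were lower in untreated 1, while over all genes 43.1% were higher and 54.5% lower in untreated 1. The part of this difference between the controls in the results was not tested, and most genes are given with both untreated values.

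With 1 DAC array, the sign and size of each difference were read by a fold rule: over 1.5-fold from the untreated mean and beyond both untreated arrays. By that rule 1442 genes (14.6%) were higher and 1709 (17.3%) were lower with DAC. With values under 5 set to 5, the counts were 1332 and 1525. Over 2-fold, they were 583 and 771, and over 1.5-fold beyond the nearer untreated array they were 927 and 1117. Against untreated 1 alone the DAC array was over 1.5-fold higher in 1251 and lower in 1443 genes, and against untreated 2 alone in 1909 and 2292. The median difference over all genes was -0.02.

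**Figure D1:**
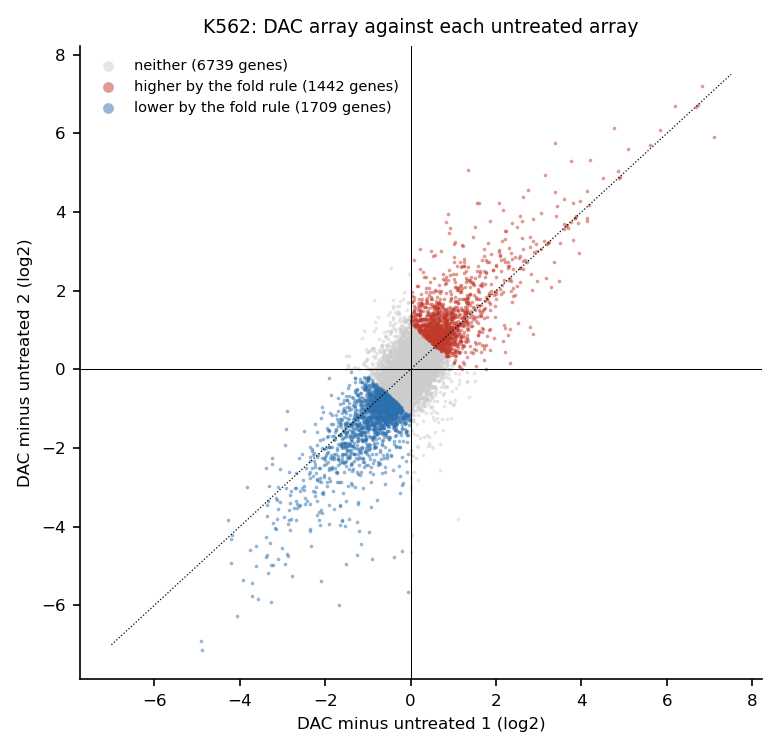
Each point is 1 of 9890 genes in K562, with the DAC value minus untreated 1 on the x axis and minus untreated 2 on the y axis (both log2). Most genes in red (1442 higher) lie above the dotted line of equality and most in blue (1709 lower) below it. Such genes are farther from untreated 2 than from untreated 1.

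Limma, which took its spread from the 2 untreated and the 2 hemin arrays and assumed the DAC array to vary like them, called 6 genes higher (0.0607%) and 0 lower (0%) at an adjusted p under 0.05. At an unadjusted p under 0.05 it had 504 higher and 568 lower, where chance gives 494 in all. Such p-values reflect only how far these arrays scatter, and that scatter may be technical. The hemin arrays are of different doses and not replicates, and with each dose its own group 0 genes were called, with a smallest adjusted p of 0.447. All 6 genes called were under 5 in both untreated arrays, a range in which the deposited values have little spread, and leaving out either untreated array left 0 called. Of the 6, 4 (ALOX12, LXN, RBP5 and AHSP) passed the minimum of 5 only through the DAC array, as did 80 of all genes tested, so these genes had to differ and their p-values are those of near-constant low values. The calls are given as a description and not as support.

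The 6 genes called were ALOX12, LXN, IFI27, RBP5, TNS1 and AHSP. ALOX12, arachidonate 12-lipoxygenase, was at 3.73 and 3.36 untreated and 10.55 with DAC. LXN, latexin, an inhibitor of carboxypeptidases, was at 2.35 in both untreated arrays and 9.03 with DAC. IFI27, an interferon-induced gene, was at 2.26 and 2.25 and then 8.98. These 3 genes were the brightest of the 6 with DAC, and none came near that level in either control. RBP5, a cellular retinol-binding protein, was at 2.52 and 2.27 untreated and 8.35 with DAC. TNS1, tensin 1 of focal adhesions, was at 2.37 and 2.28 and then 7.98. AHSP, the chaperone of free alpha globin, was at 2.44 and 2.25 and then 7.29.

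Since values under 5 carry no dependable order, the differences of these genes are bounds with untreated values set to 5: at least 46.9-fold for ALOX12, 16.3-fold for LXN, 15.8-fold for IFI27, 10.2-fold for RBP5, 7.89-fold for TNS1 and 4.89-fold for AHSP. The limma p-values of these 6 genes rest on near-constant low values and are not given as support. A further 14 genes, all higher, came just short of the threshold. Among them were GATA5, a GATA-family transcription factor gene (2.87 in both untreated arrays, 6.54 with DAC), and LGALS3BP (2.25, 2.44 and 6.17). These 2 genes were also under 5 in both untreated arrays.

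The RefSeq table of promoters (GRCh38.p14) held 5 of these 6 genes, and their 250 bases before the start are shown because they are the genes described above and differ widely in CG content. CG dinucleotides, the sites DNA methyltransferases modify, are in capitals, and each strand is read 5′ to 3′ toward the gene. ALOX12 is at chr17:6995799-6996048 (plus strand), LXN at chr3:158672649-158672898 (minus), IFI27 at chr14:94110486-94110735 (plus), RBP5 at chr12:7130006-7130255 (minus) and TNS1 at chr2:218010276-218010525 (minus).
ALOX12: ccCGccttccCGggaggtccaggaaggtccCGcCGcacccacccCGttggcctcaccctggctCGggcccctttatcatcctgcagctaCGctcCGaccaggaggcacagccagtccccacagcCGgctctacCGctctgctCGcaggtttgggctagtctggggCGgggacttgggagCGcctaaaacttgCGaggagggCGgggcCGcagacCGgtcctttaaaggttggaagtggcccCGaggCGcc
LXN: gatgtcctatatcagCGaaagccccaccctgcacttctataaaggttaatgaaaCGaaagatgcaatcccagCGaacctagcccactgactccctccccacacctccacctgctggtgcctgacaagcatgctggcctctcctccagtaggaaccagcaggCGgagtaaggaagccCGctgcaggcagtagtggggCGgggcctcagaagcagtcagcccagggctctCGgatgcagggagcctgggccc
IFI27: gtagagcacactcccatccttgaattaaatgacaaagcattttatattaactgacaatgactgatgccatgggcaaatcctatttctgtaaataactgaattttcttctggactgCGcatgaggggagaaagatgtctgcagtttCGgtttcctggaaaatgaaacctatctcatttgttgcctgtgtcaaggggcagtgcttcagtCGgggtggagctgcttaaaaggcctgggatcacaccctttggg
RBP5: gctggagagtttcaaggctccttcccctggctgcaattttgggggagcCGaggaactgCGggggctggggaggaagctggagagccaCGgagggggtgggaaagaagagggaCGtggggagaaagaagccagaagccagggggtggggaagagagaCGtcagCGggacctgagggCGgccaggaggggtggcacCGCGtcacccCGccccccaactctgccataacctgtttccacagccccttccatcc
TNS1: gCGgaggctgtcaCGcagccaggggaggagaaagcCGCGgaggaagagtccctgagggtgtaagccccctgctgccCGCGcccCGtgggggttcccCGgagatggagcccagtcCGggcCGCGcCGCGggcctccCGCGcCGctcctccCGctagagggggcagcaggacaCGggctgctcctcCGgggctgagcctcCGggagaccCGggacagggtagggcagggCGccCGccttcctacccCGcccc
TNS1 held 24 CG and ALOX12 19, RBP5 10, LXN 7 and IFI27 3, against a median of 21 over the 8219 tested genes with a promoter in the table. Of the 5 promoters only that of TNS1 lay above that median, and the median of the 5 was 10.

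A wider set of 23 genes was under 5 in both untreated arrays and at 7 or more with DAC. Besides the genes above, it was led by GCNA, a germ cell nuclear protein, at 3.26 and 4.47 untreated and 10.37 with DAC, and CA1, the carbonic anhydrase of red cells, at 3.65 and 3.14 and then 9.84. EPB42, the red cell membrane protein 4.2, was at 3.68 in both untreated arrays and 8.57 with DAC. SLC30A10, a manganese exporter, was at 3.26 in both and then 8.13, and NT5DC4 was at 3.85 and 2.74 and then 8.06. With untreated values set to 5, GCNA was at least 41.5-fold higher, CA1 28.6-fold and EPB42 11.9-fold. Their adjusted p-values in limma were 0.153 for GCNA, 0.408 for CA1, 0.157 for EPB42, 0.172 for SLC30A10 and 0.215 for NT5DC4. UBE2C and RPLP2 are also among the 23, on probe sets that are dim in K562, and these values are those of the probe sets only.

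Some of these genes were bright in other arrays. HEL cells had ALOX12 at 10.35 and 10.27, CA1 at 13.99 and 13.86, EPB42 at 12.32 and 12.16 and LXN at 9.16 and 9.09 in the untreated and the 20 nM DAC array. In K562, CA1 was at 3.71 with 25 µM hemin and 7.46 with 50 µM hemin, and NT5DC4 at 7.99 and 8.87. IFI27 was at 7.36 with PMA and at 2.40 and 2.26 with hemin. ALOX12, LXN, RBP5 and AHSP were under 5 with hemin and PMA, which follows from their passing the minimum of 5 only through the DAC array.

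In the other direction, 17 genes were at 7 or more in both untreated arrays and under 5 with DAC. FMNL1, a formin of blood cells, was at 8.59 and 8.69 untreated and 4.39 with DAC (adjusted p = 0.0681 in limma), the lowest adjusted p among the 10 of these genes with the highest untreated level. BCL2, the inhibitor of apoptosis, was at 7.69 and 9.13 and then 3.78, TOX at 8.28 and 10.32 and then 4.56, and CSTA, cystatin A, at 7.82 and 10.07 and then 2.93. HECW2 was at 8.37 and 10.38 and then 3.47, and SLC26A2, a sulfate transporter, at 8.15 and 8.16 and then 4.82. BCL2, TOX, CSTA and HECW2 were lower in untreated 1 than in untreated 2 by 1.44 to 2.25, so the controls differed in the direction of the DAC array. FMNL1 and SLC26A2 were alike in both controls. With 50 µM hemin BCL2 (4.80) and CSTA (4.59) were also under 5, while TOX, HECW2, FMNL1 and SLC26A2 were at 6.02 to 6.87.

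**Figure D2:**
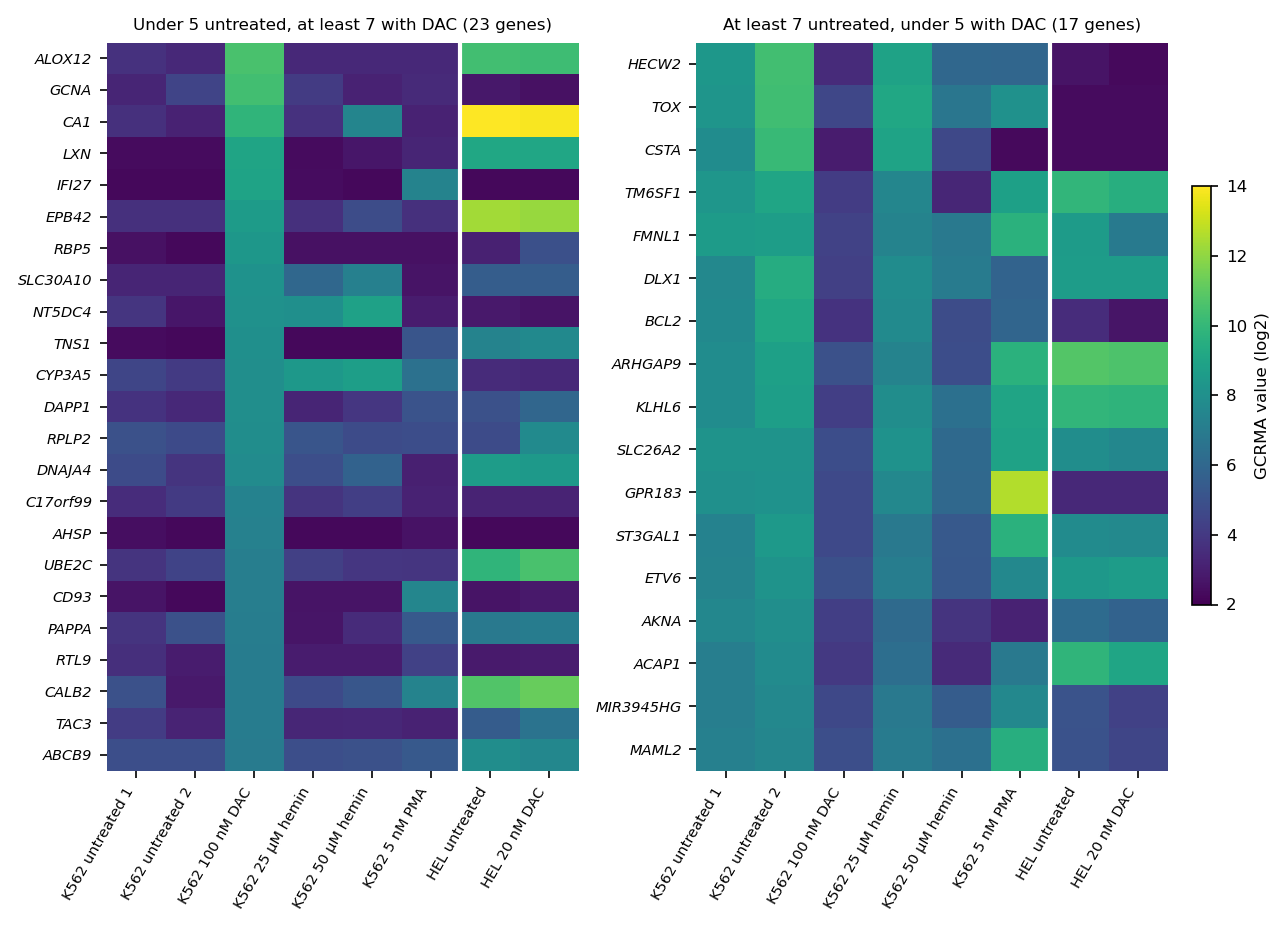
Colours give the GCRMA value (log2) of each gene (rows) in 6 K562 arrays and 2 HEL arrays (columns), 1 array per column. The 23 genes at left were chosen as under 5 untreated and 7 or more with DAC and the 17 at right as the reverse, so the first 3 columns are fixed by that choice. ALOX12, CA1, EPB42 and LXN are bright in HEL with and without DAC.

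Among genes at 5 or more in all 3 arrays, the largest differences above untreated were led by red cell genes. ALAS2, the erythroid enzyme that starts heme synthesis, was at 6.63 and 5.26 untreated and 11.39 with DAC, 43.7-fold above the untreated mean. SLC4A1, the band 3 anion exchanger of the red cell membrane, was at 6.24 and 5.74 and then 11.34 (40.7-fold). PKLR, the pyruvate kinase of red cells and liver, was at 9.28 and 6.92 and then 12.67 (23.8-fold). RHD, of the Rh blood group, was at 6.35 and 5.93 and then 10.16 (16.2-fold), with the reservation that it shares sequence with RHCE. HEMGN, a nuclear protein of blood-forming cells, was at 10.64 and 9.31 and then 13.20 (9.37-fold). In each of these 5 genes the DAC value lay above both untreated values, and untreated 1 lay above untreated 2.

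The rest of the 12 were CR1L, AK1 (adenylate kinase 1), MEST, S100A6, RASGEF1A, OPTN and GAS2L1, 7.85-fold to 15.9-fold above the untreated mean. MEST, an imprinted gene, was at 5.80 and 6.06 untreated and 9.92 with DAC. S100A6, a calcium-binding protein, was at 6.08 and 6.45 and then 10.21, and OPTN, an autophagy receptor, at 7.10 and 6.96 and then 10.22. For these 3 genes the untreated arrays lay within 0.37 of each other, and the adjusted p in limma was 0.141, 0.0741 and 0.0661. The other 9 genes of the 12 had adjusted p-values from 0.127 to 0.417.

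The 12 largest differences below untreated were LCP2, FNBP1, STING1, SYTL1, GMFG, ATP2A3, IRAG2, CORO1A, KIF21B, PRF1, IGF1 and ANXA3, 13.3-fold to 26.1-fold below the untreated mean. LCP2, the adaptor SLP-76 of blood cell signalling, was at 8.81 and 11.07 untreated and 5.24 with DAC. STING1, the receptor of cyclic dinucleotides in DNA sensing, was at 9.23 and 9.26 and then 5.04. ATP2A3, a calcium pump of the endoplasmic reticulum, was at 11.37 and 10.93 and then 7.10. PRF1, perforin of cytotoxic lymphocytes, was at 9.22 and 11.10 and then 6.35, and CORO1A, an actin-binding protein of blood cells, at 8.30 and 9.43 and then 5.02. The adjusted p-values of the 12 in limma were 0.391 to 0.531. STING1 and ATP2A3 were not lower in untreated 1 by more than 0.03, whereas the other 10 genes were lower in untreated 1 than in untreated 2. With 50 µM hemin, SYTL1 (5.33), ATP2A3 (5.54), CORO1A (4.12), KIF21B (5.10), PRF1 (5.31) and ANXA3 (4.95) were lower than with DAC. The rest of the 12 were higher than with DAC, from 5.94 (STING1) to 10.46 (GMFG). With 25 µM hemin the 12 ranged from 7.60 (CORO1A) to 12.23 (GMFG).

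Related genes were read as 24 lists, and their shares stand beside 14.6% higher and 17.3% lower over all genes tested. Members that passed the minimum of 5 only through the DAC array could not count as lower. AHSP, EPB42, UBE2C, LGALS3BP, LXN and GATA5 are such members. Of the list of globin genes and AHSP (7 of 12 measured), 7 (100%) were higher with DAC by the fold rule and 0 lower. Their median difference was 1.71, against -0.02 over all genes. HBZ, alpha-like embryonic globin, was at 14.71 and 12.05 untreated and 16.27 with DAC. HBB, adult beta globin, was at 9.36 and 7.45 and then 11.21, and HBE1, embryonic epsilon globin, at 14.27 and 12.64 and then 15.17. HBB was the farthest above the nearer untreated array of the 3, by 1.86, and HBD, at 10.19 and 8.01 and then 10.49, passed it by 0.29. All 3 kept probe sets of HBB carry the suffix _x_at, which marks probes that may match related sequences. The HBB values are therefore uncertain as values of adult beta globin alone. The list's median of untreated 2 minus untreated 1 was -1.63, so the controls differed by about as much as the DAC array did from their mean. Such medians are signed, so opposite differences between the controls cancel in them. The adult alpha globin genes HBA1 and HBA2 share 6 probe sets, which were 1.61 to 2.10 above the untreated mean and 1.80 to 2.18 higher in untreated 1 than in untreated 2. HBG1 and HBG2, the fetal globins, share 3 probe sets, which differed by 0.36 to 0.48 and lie near the top of the scale.

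Heme synthesis genes (12 of 13 measured) were higher in 7 (58.3%) and lower in 0, with a median difference of 0.76. Beside ALAS2, SLC25A37, the mitochondrial iron importer mitoferrin 1, was at 11.50 and 10.38 untreated and 13.70 with DAC. FECH, which puts iron into protoporphyrin, was at 9.76 and 9.14 and then 11.95, and PPOX, the enzyme before it, at 8.81 and 8.48 and then 11.12. UROD, in the middle of the pathway, was at 12.86 and 12.91 and then 13.11, and ALAD lay between its untreated values. This list's median of untreated 2 minus untreated 1 was -0.10, but single genes differed more. For ALAS2, SLC25A37, FECH and PPOX it was -1.37, -1.11, -0.62 and -0.34, so untreated 1 lay on the side of the DAC array. UROD was slightly lower in untreated 1.

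Erythroid membrane and surface genes (18 of 27 measured) were higher in 12 (66.7%) and lower in 1 (5.56%), with a median of 1.48. AQP1, the water channel, was at 3.0 and 2.25 untreated and 6.59 with DAC, and SPTB, beta spectrin, at 7.09 and 5.14 and then 8.30. TFRC, the transferrin receptor, was at 13.56 and 13.69 and then 13.74, and RHAG was at 13.74 and 13.76 and then 13.97, differences under 1.5-fold. The 1 gene lower was STOM, stomatin, at 13.01 and 13.26 and then 10.78. The median of untreated 2 minus untreated 1 was -0.35.

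Erythroid transcription factor genes (16 of 17 measured) were higher in 6 (37.5%) and lower in 3 (18.8%), beside 14.6% and 17.3% of all genes. KLF1, the erythroid Krüppel-like factor, was at 10.96 and 9.58 untreated and 11.84 with DAC, and TAL1 at 9.94 and 10.28 and then 11.16. The lower genes were IKZF1, MYB, a factor of immature progenitors, at 12.15 and 12.33 and then 10.22 (4.04-fold lower), and BCL11A, a repressor of the fetal globin genes, at 6.84 and 7.52 and then 4.69. MYB and BCL11A lay under both controls by 1.93 and 2.15, and their adjusted p-values in limma were 0.225 and 0.244. GATA1 was within 1.5-fold of the untreated mean.

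The 250 bases before the start of ALAS2 (chrX:55030978-55031227, minus strand) and EPB42 (chr15:43221019-43221268, minus strand) are shown as examples of heme and membrane genes whose promoter holds the GATA-factor letters AGATAA, searched on both strands and in capitals (TTATCT is the same motif on the other strand). Other promoters hold them too, that of RHD among them, and these examples were chosen after their values were seen.
ALAS2: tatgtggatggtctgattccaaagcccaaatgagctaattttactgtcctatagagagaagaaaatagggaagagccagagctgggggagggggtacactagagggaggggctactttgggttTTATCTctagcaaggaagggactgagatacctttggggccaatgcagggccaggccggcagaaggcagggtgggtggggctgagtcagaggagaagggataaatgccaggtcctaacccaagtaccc
EPB42: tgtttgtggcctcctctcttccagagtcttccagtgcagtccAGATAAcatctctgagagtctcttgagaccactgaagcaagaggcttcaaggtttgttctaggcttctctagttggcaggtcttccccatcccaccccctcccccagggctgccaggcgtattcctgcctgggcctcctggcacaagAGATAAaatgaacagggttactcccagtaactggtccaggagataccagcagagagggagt
The letters were found in 5 of 14 promoters of the erythroid membrane list (35.7%) and 2 of 10 of the heme list (20%). Over the 8219 promoters of all tested genes the share was 4.37%. Some other lists lay between the heme and the erythroid membrane list, with 2 of 9 megakaryocyte and platelet promoters (22.2%) and 1 of 4 monocyte and granulocyte promoters (25%). By the fold rule, 4.71% of higher genes, 4.61% of lower genes and 4.23% of the others held them. This motif was picked after the values were seen, and a match does not show a site in use.

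Other blood lineages were described by markers of their own. Monocyte and granulocyte genes (7 of 25 measured) were lower in 6 (85.7%) and higher in 0, with a median of -1.58. Only 3 were lower once values under 5 were set to 5. FCGR2A, an Fc receptor, was at 8.96 and 10.72 untreated and 6.61 with DAC, and ITGAM, integrin alpha M, at 3.36 and 7.27 and then 2.45. ITGB2 was at 3.48 and 6.78 and then 2.33. Untreated 2 alone carried ITGAM and ITGB2 above 5, and the median of untreated 2 minus untreated 1 was 1.77, larger than the DAC difference. Megakaryocyte and platelet genes (12 of 24 measured) were higher in 2 (16.7%) and lower in 3 (25%), beside 14.6% and 17.3% of all genes. In this list 6 genes were under 5 in all 3 arrays. TUBB1, the platelet beta tubulin, was at 6.67 and 6.02 untreated and 8.66 with DAC, whereas ITGA2B was at 7.29 and 7.86 and then 5.80 and RAB27B at 8.96 and 9.62 and then 6.28. Of the lymphocyte genes (3 of 15 measured), CD3D was lower, and CD3G, at 3.03 and 3.67 and then 2.69, was under 5 in all 3 arrays, where values have no dependable order.

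Genes of the DNA methylation machinery (15 of 17 measured), enzymes and other proteins, were higher in 2 (13.3%) and lower in 1 (6.67%). All genes had 14.6% and 17.3%, and no difference between the shares was tested. The 2 higher were UHRF1 and MBD1, which binds methylated DNA. The 3 other kept probe sets of MBD1 differed by -0.41 to 0.41. DNMT1, the maintenance methyltransferase and main target of DAC, was at 12.52 and 12.58 untreated and 12.31 with DAC. DNMT3A was at 7.55 and 8.17 and then 8.03, between its controls, and DNMT3B at 11.08 and 10.33 and then 10.08. UHRF1, which brings DNMT1 to newly copied DNA, was at 11.55 and 10.97 and then 12.38. The values are of mRNA, and protein was not measured. Of the genes that take up and metabolise deoxycytidine analogues (12 of 15 measured), 2 were higher (16.7%) and 2 lower (16.7%), near the shares of all genes. DCK, the kinase that activates DAC, was at 10.97 and 11.55 and then 10.47 (1.73-fold lower). SLC29A1, a nucleoside transporter, was at 8.27 and 7.32 and then 10.05 (4.75-fold higher).

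Some gene classes are known for methylated promoters. Of 70 cancer-testis and germline genes, 15 had a probe set of their own and 8 were measured. Of these 8, 3 (37.5%) were higher and 0 lower, beside 14.6% and 17.3% of all genes, with a median of 0.47. None of the 8 was under 5 in both untreated arrays. The others with a probe set of their own were under 5 in all 6 K562 arrays, the DAC array included. MAGEC1 was at 8.19 and 8.36 untreated and 9.37 with DAC, and TEX11 at 8.37 and 9.17 and then 9.76. MAGEA6, at 12.36 and 12.27 and then 12.71, and PRAME, at 13.67 and 13.81 and then 13.70, were bright before DAC. In HEL, MAGEA6 was at 5.13 untreated and 5.97 with 20 nM DAC. Family members share sequence, so single MAGE values are uncertain.

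Imprinted genes (15 of 35 measured) were higher in 3 (20%) and lower in 2 (13.3%), near the 14.6% and 17.3% of all genes, with a median of -0.02. MEST led, with NAP1L5 at 8.38 and 8.63 untreated and 9.98 with DAC and MEG3 at 6.97 and 8.42 and then 9.14, though another probe set of MEG3 was over 1.5-fold lower. DIRAS3 was at 2.77 and 7.01 untreated and 2.81 with DAC, so the controls alone differed. Genes known to be silenced by promoter methylation in cancer (17 of 49 measured) were higher in 4 (23.5%) and lower in 10 (58.8%), with a median of -0.91. The 4 higher genes were LXN, GATA5, GSTP1 and SPARC, and with values under 5 set to 5 the count was 3. LXN and GATA5 passed the minimum of 5 only through the DAC array, so they could not count as lower. Of the lower genes, 3 are given here. PYCARD, an inflammasome adaptor, was at 8.32 and 9.18 untreated and 5.71 with DAC, LGALS1, galectin 1, at 12.51 and 13.15 and then 10.84, and SOCS1 at 9.52 and 9.08 and then 7.70. All 10 lower genes were above 5 in both untreated arrays.

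Interferon-stimulated genes (34 of 52 measured) were higher in 13 (38.2%) and lower in 7 (20.6%), beside 14.6% and 17.3% of all genes. The list's median was 0.38, and its median of untreated 2 minus untreated 1 was 0.27. Of the 34, 4 were under 5 in all 3 arrays, where values have no dependable order. With values under 5 set to 5, 11 were higher, since OAS3 and SAMD9L no longer differed by 1.5-fold. After IFI27 and LGALS3BP came IFI6, at 3.21 and 3.20 untreated and 5.78 with DAC, and ISG15, a ubiquitin-like protein, at 8.37 and 8.80 and then 10.10. IRF7 was at 5.59 and 5.69 and then 6.71 and IRF9 at 6.45 and 5.91 and then 7.23. IFITM2, a membrane restriction factor, was lower, at 12.48 and 13.16 and then 10.63, as was IFIT3, at 6.67 and 8.05 and then 5.96. IFIT1 and RSAD2, which are usually prominent in an interferon response, lay between their controls. Antigen presentation genes (18 of 31 measured) were higher in 2 (11.1%) and lower in 5 (27.8%). PSMB9, an immunoproteasome subunit, was at 3.03 and 3.58 and then 5.47, at least 1.38-fold higher with untreated values set to 5. HLA-E, a nonclassical class I molecule, was at 10.54 and 11.49 and then 8.07, and CTSS, cathepsin S, at 6.46 and 8.46 and then 3.52. HLA genes share sequence and are uncertain one by one.

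Genes of amino acid synthesis and stress were lower as a list. ATF4 targets (17 of 18 measured) were lower in 15 (88.2%) and higher in 0, with a median of -1.45. Their median of untreated 2 minus untreated 1 was -0.12, but single genes differed more and both ways, with CTH at -0.92 and STC2 at 0.87. TRIB3, a pseudokinase induced by ATF4, was at 12.78 and 12.66 untreated and 10.43 with DAC (4.90-fold lower). ASNS, asparagine synthetase, was at 13.92 and 14.16 and then 12.50, PHGDH, the first enzyme of serine synthesis, at 10.11 and 10.51 and then 8.37, and CTH, of cysteine synthesis, at 11.34 and 10.42 and then 8.85. The adjusted p-values in limma of these 4 genes were 0.499 to 0.625. With 25 and 50 µM hemin and with PMA, TRIB3 was at 12.35, 10.03 and 9.04 and PHGDH at 9.50, 6.14 and 3.63, so the DAC array lay within the range of the other treated arrays.

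Heat shock genes (11 of 14 measured) were higher in 8 (72.7%) and lower in 0, with a median of 0.76. HSPH1, a chaperone of the HSP110 class, was at 9.85 and 9.75 untreated and 11.20 with DAC, and DNAJB1, a partner of HSP70, at 9.71 and 9.50 and then 10.68. NRF2 targets (15 of 20 measured) were higher in 4 (26.7%) and lower in 2 (13.3%), beside 14.6% and 17.3% of all genes. BLVRB, biliverdin reductase B, was at 12.55 and 12 untreated and then 13.88, and NQO1, a quinone reductase, at 9.98 and 9.50 and then 8.12.

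Clustered histone genes (11 of 19 measured) were higher in 10 (90.9%) and lower in 0, with a median of 1.09. Their median of untreated 2 minus untreated 1 was 0.02. H2AC8 was at 7.18 and 7.37 untreated and 9.34 with DAC, H2BC21 at 8.67 and 8.98 and then 10.33, and H1-2, a linker histone, at 13.04 and 12.62 and then 13.83. The highest adjusted p of the list in limma was 0.502 and the lowest 0.189. Histone genes are near-identical in sequence, and only those measured on their own probe sets are counted here.

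Cell cycle lists had smaller medians. DNA replication genes (30 of 30 measured) were higher in 6 (20%, beside 14.6% of all genes) and lower in 0, with a median of 0.27, among them MCM4 at 10.80 and 10.27 and then 11.60, MCM10 at 9.81 and 9.60 and then 10.64 and GINS1 at 10.41 and 10.39 and then 11.33. PCNA was at 13.03 and 13.23 and then 13.16, between its controls. Mitosis genes (25 of 25) were higher in 5 (20%) and lower in 0, with a median of 0.19. Of the G1 cyclins, CDK inhibitors and MYC (18 of 23), 4 were higher (22.2%) and 4 lower (22.2%), beside 14.6% and 17.3% of all genes. CCNE1 was at 8.75 and 8.20 and then 9.51 and CCND1 at 8.78 and 8.14 and then 7.09. MYC was at 13.63 and 13.33 and then 12.97, and CDKN1A, the p21 inhibitor, at 7.16 and 7.55 and then 7.22.

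The p53-pathway genes (19 of 24 measured) were higher in 1 (5.26%) and lower in 5 (26.3%), beside 14.6% and 17.3% of all genes. Their median was -0.41, or -0.08 against untreated 1 alone. SESN2, also in the ATF4 list, was at 10.17 and 9.78 untreated and 8.23 with DAC, ZMAT3 at 7.55 and 8.27 and then 6.48 and BAX at 7.67 and 8.34 and then 6.82. MDM2 was at 10.28 and 9.52 and then 10.29. Of the BCL2 family (15 of 18 measured), 6 were lower (40%) and 1 higher (6.67%). BCL2L11 was at 9.76 and 10.72 and then 8.80, and BNIP3, a mitophagy receptor, at 10.44 and 10.18 and then 11.59. S100 and annexin genes (15 of 19) were lower in 8 (53.3%) and higher in 2 (13.3%), with a median of -0.69, or -0.23 against untreated 1 alone. ANXA1 was at 12.35 and 11.83 untreated and 9.29 with DAC, S100A10 at 9.47 and 10.52 and then 7.41, and ANXA3 at 7.51 and 10.81 and then 5.42.

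Against the hemin arrays, limma called 24 genes at an adjusted p under 0.05 (0.243%), with DAC higher in 22 and lower in 2, and against the PMA array 1633 genes (16.5%), with DAC higher in 865 and lower in 768. These comparisons use the same DAC array. Their spread comes from the untreated and hemin arrays, and the hemin arrays are of different doses and not replicates. Among the genes called higher than with hemin were ALOX12, LXN, IFI27, RBP5, TNS1, AHSP, GATA5 and LGALS3BP, all under 5 in both hemin arrays. Except for IFI27 and TNS1, these genes passed the minimum of 5 only through the DAC array and could only be higher there. The calls are a description and not support. MEST was at 4.24 and 3.51 with hemin and 9.92 with DAC (adjusted p = 0.0487 against hemin), and OPTN at 6.56 and 6.44 with hemin and 10.22 with DAC (adjusted p = 0.0416). Of the 2 genes lower with DAC, LY96, a TLR4 co-receptor, was at 8.08 and 7.68 with hemin and 2.25 with DAC, and GPR55 at 6.03 and 6.25 and then 2.35. These 2 genes were named after their values were seen, and both were under 5 in the untreated arrays.

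In HEL, with 1 DAC array (20 nM) against 1 untreated array and no shared control, 8822 of the genes were at 5 or more in at least 1 of the 2 arrays. Of the genes higher in K562, 130 of 1229 (10.6%) were over 1.5-fold higher in HEL and 44 (3.58%) lower, against 3.81% higher and 4.83% lower over all 8822. Of those lower in K562, 22 of 1445 (1.52%) were higher and 138 (9.55%) lower. The doses differ between the cell lines, and HEL had no replicate. Of the 23 genes under 5 untreated and at 7 or more with DAC, 14 were measured in HEL, of which 4 were over 1.5-fold higher and 0 lower. PKLR was 1.54 higher (log2) in HEL with DAC and HBZ 1.12 higher, while ALAS2 was 0.50 higher.

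By the number of CG in the 250 bases before the start, the share of genes higher with DAC ran from 10.9% to 15.5% over 5 classes. The share lower was 29.9% among the 508 genes with 0 to 4 CG and 15.8% among the 4769 with 20 or more. In the class of 0 to 4 CG the untreated arrays also differed more often, with untreated 2 over 1.5-fold above untreated 1 in 23.8% and untreated 1 above untreated 2 in 10.6%, against 11.4% and 11.5% with 20 or more CG. Of lower genes with a promoter in the table, 152 of 1411 (10.8%) had under 5 CG, against 6.4% of the higher genes and 6.18% of all. The 12 largest differences above and the 12 below untreated each had 4 of 9 promoters with under 5 CG. The 23 genes under 5 untreated and at 7 or more with DAC had 8 of 18 (44.4%), with a median of 5 CG. The 17 genes in the reverse direction had 2 of 11 (18.2%), with a median of 23. Among all genes under 5 in both untreated arrays, 17.9% of the higher and 23.8% of the others had under 5 CG. By chromosome, genes lower with DAC ranged from 11.7% on chromosome 22 to 22.9% on chromosome 12, and genes higher from 7.79% on chromosome 15 to 20.3% on chromosomes 16 and 22. The chromosome 12 share was 29% against untreated 2 alone and 19% against untreated 1 alone.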

How the data were processed

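The authors deposited log2 values per probe set from Affymetrix U133 Plus 2.0 arrays, made with GCRMA per the labels (version not given in the sources used here), which corrects background by probe sequence and usually also normalizes by quantiles and summarizes probes. Quantile normalization would give all arrays the same distribution, so that a change common to most genes could not be seen. The deposited arrays were close but not identical, with medians from 6.67 to 6.78 and highest values from 15.88 to 16.27. How the 27306 probe sets were selected is not given. The number of arrays limits the precision.

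From these log2 values, probe sets were named through the platform's annotation (22858 with 1 gene, 1164 with several, 3284 unlisted), with symbols updated through RefSeq. Probe sets with 1 gene and a value of at least 5 in 1 or more of the 6 K562 arrays were kept (17615), and the one with the highest mean stood for its gene. Of 4695 genes with several, 75 had one over 1.5-fold higher and another lower. Limma 3.58.1 in R 4.3.3 (lmFit, then eBayes) was fitted to all 6 K562 arrays as untreated, DAC, hemin (the 2 doses together) and PMA, with Benjamini-Hochberg adjustment. The fold rule asked for over 1.5-fold and the DAC value beyond both untreated arrays. An exact permutation test of 1 array against 2 cannot go below 1 in 3 and was not run. Figures and promoter counts were made in Python 3.11.15.

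Genes named were the 12 largest differences each way among genes at 5 or more in all 3 arrays, the 10 strongest genes crossing from under 5 to at least 7 or back, up to 4 per list with the largest difference, and DNMT1, DNMT3A, DNMT3B and DCK. Other members of the lists are named to show their range, chosen after their values were seen. The 24 lists and the members were chosen with earlier results of these data known. The paper uses the hemin arrays only and names no test for arrays, and its t-test was an alternative. The fit was tested on simulated data. Alternatives were other normalizations, minimums and probe summaries, each array left out, other groupings and other fold rules.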

Additional observations from a re-analysis of the deposited data

Results flagged for a closer look

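For 4 named genes the measured values of DAC and untreated lay in opposite directions in K562 (100 nM) and HEL (20 nM, 1 array against 1). The difference between the cell lines was not tested. BGLT3, a noncoding RNA of the beta globin locus, was 1.71 higher (log2) in K562 and differed by -1.17 in HEL (8.25 untreated, 7.08 with DAC). PSMB9 differed by -0.7 in HEL (10.39 and 9.69), while in K562 it was under 5 in both untreated arrays and at least 1.38-fold higher, less than 1.5-fold, so its direction in K562 is not settled. CD3D differed by -2.21 in K562 and by 2.39 in HEL (3.45 and 5.85, the first under 5 and so without dependable size), and TRIB3 by -2.29 in K562 and 0.78 in HEL (8.68 and 9.46).

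Probe sets outside the gene table also crossed from under 5 in both untreated arrays to 7 or more with DAC. Of these, 4 name several genes and 2 have no gene listed. The probe set of H19, an imprinted noncoding RNA, and its microRNA MIR675 was at 2.60 and 2.25 untreated and 11.45 with DAC, and was 1.49 higher (log2) with DAC in HEL. The probe set of MCAM, a cell adhesion molecule, and MIR6756 was at 3.84 and 3.57 and then 8.36. Both probe sets of TNXB and TNXA, near-identical tenascin X sequences, were higher, at 4.30 in both untreated arrays and then 7.57, and at 4.86 and then 8.14.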

How the results depend on the processing

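The 6 limma calls became 26 after quantile normalization, 38 after median centring, 16 with a minimum of 6, 10 with none, 17 with the mean of probe sets and 25 with an intensity trend. They became 0 with a minimum of 4, with each hemin dose its own group, with the untreated and DAC arrays alone and without any 1 untreated or hemin array (0 to 0, with 551 to 1240 at an unadjusted p under 0.05 in limma). The methods' t-test gave 602 unadjusted (235 genes with equal untreated values left out) and 0 after Benjamini-Hochberg adjustment. All 6 calls were kept under quantile normalization, centring, a minimum of 6 and the mean, and 1 of 6 with no minimum. The fold rule gave 927 higher and 1117 lower beyond the nearer untreated array, 583 and 771 over 2-fold, and 1251 to 1909 and 1443 to 2292 without 1 untreated array, and 1332 and 1525 with values under 5 set to 5.

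The 24 calls against hemin became 45 after centring, 0 with a minimum of 4, 10 with no minimum and 0 without 1 untreated array. Against PMA, 0 were left without 1 untreated array, with 3134 at an unadjusted p under 0.05 in limma. The cause was not tested. These alternatives, the setting of values to 5 and those for HEL, promoters and chromosomes were chosen after seeing the data. The DNMT3A difference was 0.48 without untreated 2 and reversed to -0.13 without untreated 1. Of 192 list medians under alternatives, 8 moved beyond the spread and 0 reversed. With no minimum the median was -0.03 for methylation-silenced genes and 0 for interferon-stimulated genes. The arrays share no replicate numbers that pair treatments. No paired analysis was possible because the DAC group holds 1 array. Values under 5 are bounds, and 1 DAC array has no replicate check.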
